A study of Homo sapiens with 6 samples.

Results

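BNC2, MECOM, PAX8, WT1, EMX2, SOX17, ESR1, ARID1A and GATA6 are regulators of gene activity with roles in the ovary, in the Müllerian ducts that form the oviduct and uterus, or in ovarian cancer. Their transcripts were followed in ES-2 cells, an established line from a human ovarian clear cell carcinoma, after a microRNA mimic had been introduced. All probes whose symbol in the platform annotation equals one of these names were taken, which gave 15 of the 48803 probes and 9 of the 18852 named genes. The list was chosen by the log2 differences between mimic and control on these same arrays, which were known for BNC2 and MECOM, together with the genes' roles. The differences below therefore describe these genes and test nothing.

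All 6 samples were total RNA from ES-2 cells harvested 48 hours after transfection. In 3 of them the cells had received a mimic of mir-22 at 65 nM. The other 3 had received a negative control mimic built on C. elegans microRNAs with little sequence identity to human ones, and the sources used here state no dose for it. A mimic is a synthetic double-stranded RNA that acts as the microRNA it copies. Replicates are labelled biological, but no separate cultures are named, so any spread quoted is that between these arrays of 1 cell line and may be partly technical. RNA was measured on 1-colour Illumina bead arrays.

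A microRNA lowers transcripts that pair with its seed, the short stretch near its 5′ end, and the transcripts that respond differ with the cell. Lineage factors such as PAX8, WT1 and EMX2 mark which embryonic epithelium a tissue came from and many ovarian tumours keep some of them. MECOM and ESR1 have been reported elsewhere as targets of mir-22. ARID1A, a subunit of the BAF chromatin remodelling complex, is often mutated in ovarian clear cell carcinoma, and common variants near BNC2 have been linked to ovarian cancer risk.

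The mature arms of the microRNA are shown because the mimic brings such a sequence into the cell. The labels do not say which arm was copied, and the name without an arm was long used for the 3p arm. Both are RefSeq sequences on GRCh38.p14, minus strand, at chr17:1713914-1713935 for the 3p arm and chr17:1713952-1713973 for the 5p arm, and the capitals mark the seed, bases 2 to 8.
hsa-miR-22-3p: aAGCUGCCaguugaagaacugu
hsa-miR-22-5p: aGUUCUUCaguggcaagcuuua
The arms have different seeds, AGCUGCC and GUUCUUC.

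Between 17465 and 19244 probes were detected per array, where a probe counts as detected at a detection p under 0.01. Control mimic replicate 3 stood apart from its group, with a correlation of 0.980 and 0.981 with the other controls over the probes kept for testing, against 0.997 between those. The microRNA itself was not measured, and its host transcript MIR22HG had no probe named here. Of markers of ovarian clear cell carcinoma, 6 of 9 on the array were detected on all 6 arrays, including IGF2BP3, MET and TFPI2, whereas the napsin gene NAPSA was detected on none. Of 8 markers of simple epithelium, 3 were detected on all 6 arrays, the keratin genes KRT7, KRT8 and KRT18. The other 5 were detected on none, namely the keratin gene KRT19, CLDN3, CLDN4 and the epithelial adhesion genes EPCAM and CDH1. All 6 mesenchymal markers, among them VIM and TWIST1, were detected on all 6 arrays. Of 7 markers of Müllerian epithelium 1, the cadherin gene CDH6, was detected on all 6 arrays, while PAX8, EMX2, SOX17 and FOLR1 were detected on none. The summed raw intensity of the 7, at the brightest probe of each, was 348.7 to 365.8 in controls and 390.5 to 442.1 with the mir-22 mimic. These ranges did not overlap, while those of every other marker list did, but nothing is read from this. The sums were not normalised, and most of the 7 lay at or near background. Raw intensity over all probes differed too. Its upper quartile was 96.2, 94.9 and 80 on mimic replicates 1 to 3, and 85.6, 85.2 and 78.1 on control mimic replicates 1 to 3. The share of all genes without overlap in raw intensity was not counted. CDH6 itself had a mean log2 level of 5.98 in controls and 6.65 with the mimic, a rise of 0.67 (SE 0.114, adjusted p = 0.0155 in limma). That is the brightest of its 2 probes, and the other is not given here. Whether the CDH6 call holds with other processing or with an array left out is not given either. The part of these markers in the differences below was not tested. None of the 7 markers of granulosa cells and ovarian stroma was detected on any array.

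Of the 9 regulators, BNC2, MECOM and ARID1A were detected on all 6 arrays, WT1 on 4 and GATA6 on 2. PAX8, EMX2, SOX17 and ESR1 were detected on none. By probe, 4 of the 15 were detected on at least 3 arrays and so entered the test, 2 were detected on 1 or 2 arrays, and 9 on none. At least 1 probe was kept for 59.1% of all named genes on the array, and for 4 of these 9. Of all probes, 32.7% were detected on all 6 arrays. Intensities of the 9 undetected probes ran from 36.5 to 50.9, in the range of the array's background. Levels of different probes depend on the probe as well as on the transcript, so they are not ranked against each other.

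**Figure D1:**
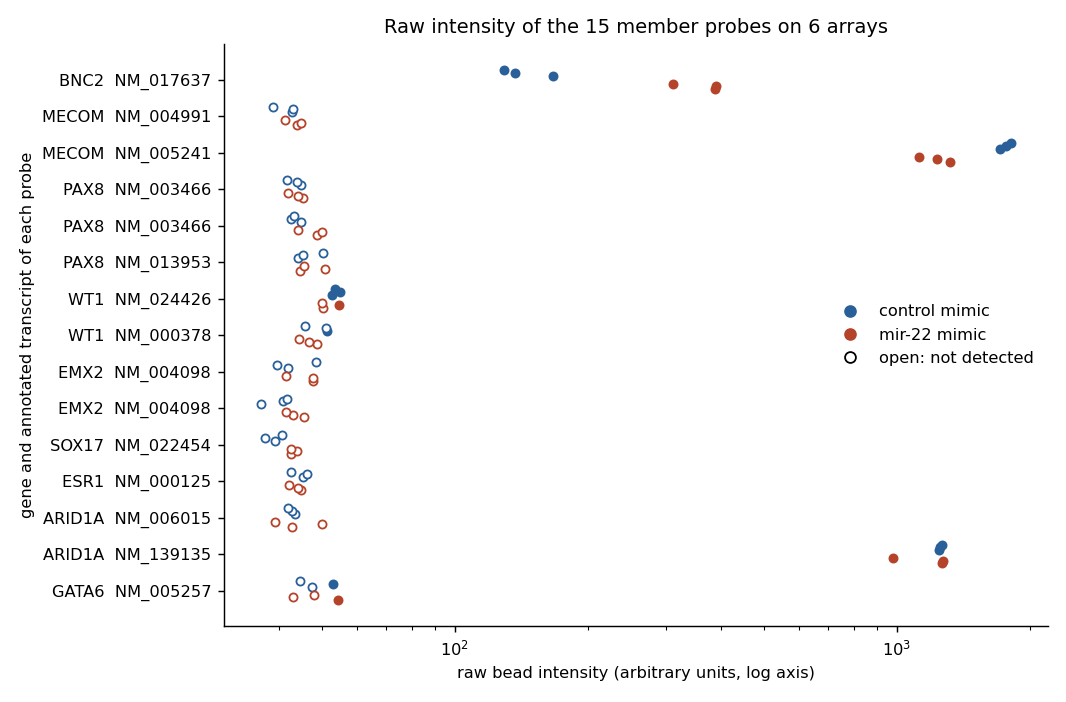
Raw bead intensity of each of the 15 probes (log axis, arbitrary units) on the 3 control mimic arrays (blue) and the 3 mir-22 mimic arrays (red), with open points where the probe was not detected and rows named by gene and annotated transcript. Only the BNC2 probe, 1 MECOM probe and 1 ARID1A probe lie clear of the background, which holds the 9 undetected probes at 36.5 to 50.9.

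BNC2 encodes basonuclin 2, a zinc finger protein of the nucleus. Its raw intensity was 167.1, 137.0 and 129.4 on control mimic replicates 1, 2 and 3, and 387.4, 390.4 and 310.9 on mir-22 mimic replicates 1, 2 and 3. Every mimic array was far above every control array. After background correction and quantile normalisation the log2 level was 6.97 ± 0.18 (SD, n = 3) with the control mimic and 8.32 ± 0.03 with the mir-22 mimic. The log2 difference was 1.34 ± 0.115 (moderated SE, which borrows spread from all kept probes), or 2.54-fold, and it passed the threshold of an adjusted p under 0.05 in limma. It ranked 13 from the top among 11133 genes. In RNA from whole cultures, a changed number of cells with a transcript and a changed amount per cell cannot be told apart.

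The replicate spread of BNC2 lay mostly in the controls, where replicate 1 was highest at a log2 of 7.17 and replicate 2 lowest at 6.80. The probe's mean rested on 28 to 42 beads per array. The standard error over beads was 3.21% to 4.34% of the intensity on 4 arrays, and 8.08% and 7.74% on mimic replicate 3 and control mimic replicate 3. Both are small beside the difference between groups. Without control mimic replicate 3 the log2 difference was 1.33.

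MECOM, a zinc finger transcription factor also known as EVI1, went the other way at 1 of its 2 probes. The probe annotated to NM_005241 had raw intensities of 1711.3, 1765.1 and 1811.8 on control mimic replicates 1 to 3 and 1318.5, 1229.9 and 1120.8 on mir-22 mimic replicates 1 to 3. The groups did not overlap. The log2 level was 10.84 ± 0.13 (SD, n = 3) in controls and 10.15 ± 0.11 with the mir-22 mimic, a difference of -0.69 ± 0.111 (moderated SE), or 1.61-fold lower, and it passed the threshold in limma. It ranked 134 by size among the 461 genes called lower. Leaving out mimic replicate 1, 2 or 3 gave log2 differences of -0.68, -0.64 and -0.75, none of which passed. Without control mimic replicate 3 the difference was -0.61 and passed.

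The other MECOM probe, annotated to NM_004991, was detected on no array. Its raw intensity was 42.8, 43.0 and 38.8 on the controls and 43.9, 44.9 and 41.3 on the mimic arrays, so the groups overlapped within the background. The locus gives transcripts from more than 1 start, and the longer ones carry the MDS1 exons upstream of EVI1. Which exon each probe lies in was not analysed here. The decrease therefore refers to the transcripts read by 1 probe.

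The windows around the annotated starts of the genes that rose and fell are shown because MECOM has starts far apart and BNC2 has 1 in the table. Each spans 300 bases around a start, most of them before it, from RefSeq on GRCh38.p14, minus strand, and capitals mark GATAA or ACAAT on either strand. GATAA is the core bound by GATA factors such as GATA6, and ACAAT the core bound by SOX factors such as SOX17. The windows are chr9:16870621-16870920 for BNC2, and chr3:169663663-169663962 and chr3:169146490-169146789 for the most upstream and most downstream of the 3 MECOM starts.
BNC2: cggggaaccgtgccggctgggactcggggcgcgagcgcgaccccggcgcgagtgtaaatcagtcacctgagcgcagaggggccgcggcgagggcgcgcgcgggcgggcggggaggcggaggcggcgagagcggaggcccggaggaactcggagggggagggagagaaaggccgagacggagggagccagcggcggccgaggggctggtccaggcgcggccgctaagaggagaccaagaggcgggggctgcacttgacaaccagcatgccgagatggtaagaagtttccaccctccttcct
MECOM upstream start: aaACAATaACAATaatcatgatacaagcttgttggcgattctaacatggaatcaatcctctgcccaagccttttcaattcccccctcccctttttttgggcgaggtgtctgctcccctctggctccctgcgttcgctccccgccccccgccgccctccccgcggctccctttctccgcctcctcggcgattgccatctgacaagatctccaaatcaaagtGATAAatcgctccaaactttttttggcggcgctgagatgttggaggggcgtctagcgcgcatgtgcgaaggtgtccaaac
MECOM downstream start: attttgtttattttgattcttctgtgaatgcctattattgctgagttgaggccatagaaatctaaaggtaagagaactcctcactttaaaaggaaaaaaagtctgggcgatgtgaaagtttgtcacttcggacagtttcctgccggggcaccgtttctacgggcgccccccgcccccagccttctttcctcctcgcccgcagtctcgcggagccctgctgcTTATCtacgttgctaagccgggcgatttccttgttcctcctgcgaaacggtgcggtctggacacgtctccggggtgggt
The BNC2 window held neither core and was 72.3% G and C, against a median of 58.7% over all windows. The upstream MECOM window held 1 GATAA and 2 ACAAT, and the downstream one held GATAA once, on the other strand as TTATC. The remaining MECOM window, at chr3:169147422-169147721, held neither. GATAA on either strand was found in 22.7% of 35116 windows and ACAAT in 27.4%, so the matches are common ones. Windows were in the table for 8 of the 9 genes, and SOX17 was the other. Of the 18 windows, none held the palindromic oestrogen response element (GGTCA and TGACC, 3 bases apart), which 0.0570% of all windows held, and 1, at ESR1, held the WT1 and EGR site GCGGGGGCG on either strand, which 5.07% held.

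ARID1A was read at 1 of its 2 probes. The probe annotated to NM_139135 had raw intensities of 1243.0, 1249.1 and 1266.7 on control mimic replicates 1 to 3 and 1266.1, 1274.1 and 980.5 on mir-22 mimic replicates 1 to 3, so the groups overlapped before normalisation. After it they did not, with log2 levels of 10.34 ± 0.10 (SD, n = 3) in controls and 10.09 ± 0.03 with the mir-22 mimic. In the authors' deposited value table they did not overlap either, at 1449.8 to 1654.5 in controls and 1266.1 to 1323.1 with the mimic. The log2 difference was -0.25 ± 0.098 (moderated SE) and did not pass the threshold. It was -0.12 with median scaling and -0.18 without control mimic replicate 3, the highest of the controls. The ARID1A probe annotated to NM_006015 was detected on no array, at 42.0 to 43.6 in controls and 39.2 to 50.1 with the mimic.

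WT1, a zinc finger factor of gonad and kidney development and a common marker of serous ovarian tumours, lay at the edge of detection. The probe annotated to NM_024426 had raw intensities of 52.7, 55.1 and 53.7 in controls and 50.4, 54.8 and 50 with the mir-22 mimic. It was detected on all 3 control arrays and on mimic replicate 2 alone of the mimic arrays. Log2 levels were 4.89 ± 0.05 (SD, n = 3) and 4.65 ± 0.12, which did not overlap, while the raw intensities did. The log2 difference of -0.23 ± 0.102 (moderated SE) did not pass, and a signal this near background is compressed by the offset added before the log. The other WT1 probe, annotated to NM_000378, was detected on control mimic replicate 1 only, at a raw intensity of 51.5, against 51.0 and 45.9 on the other controls and 44.4 to 48.9 with the mimic.

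**Figure D2:**
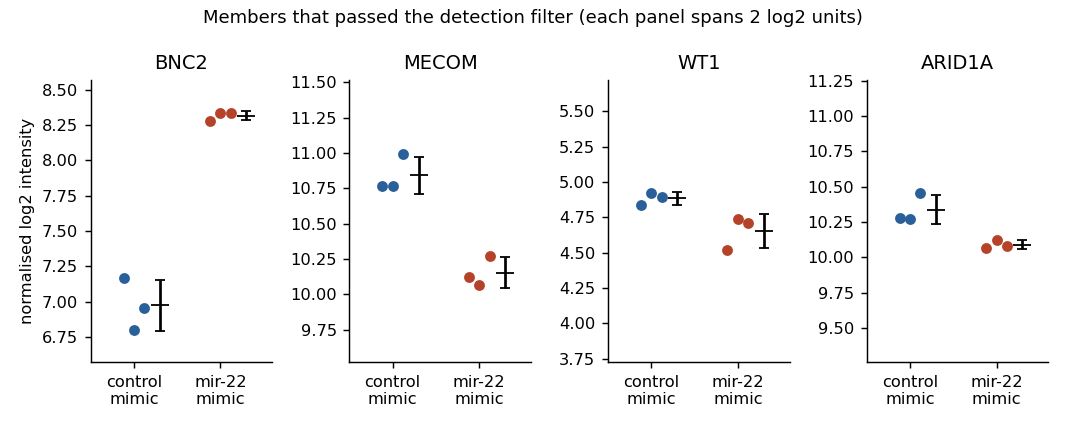
Normalised log2 intensity of the 4 genes that passed the detection filter, with 1 point per array and the mean with its SD over 3 arrays beside them; all panels span 2 log2 units but start at different levels. BNC2 moved from 6.97 to 8.32, MECOM from 10.84 to 10.15, and WT1 and ARID1A by about -0.23 and -0.25.

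GATA6, a zinc finger factor of endoderm that is also made in the ovary, was detected on mir-22 mimic replicate 1 and control mimic replicate 2. Its raw intensity was 47.6, 52.9 and 44.6 on the controls and 54.5, 43.0 and 48.0 on the mimic arrays. The groups overlapped and each held 1 detected array, so no fold change is given.

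PAX8 is the paired-box factor used in pathology to recognise Müllerian tumours. Its 3 probes were detected on no array, with raw intensities from 41.7 to 50.3 in controls and 41.9 to 50.9 with the mimic. EMX2, a homeobox factor that mice need to form the urogenital tract, had 2 probes at 36.5 to 48.6 and 41.6 to 47.9. SOX17, an SRY-related factor of endoderm and of the Müllerian epithelium, was at 37.3 to 40.7 and 42.5 to 43.9. ESR1, the oestrogen receptor alpha gene, was at 42.5 to 46.3 and 42.2 to 44.9. Both groups were below detection for all of them, so no fold change is given. A probe below background gives only a bound, so neither a level nor a change of these genes was measured.

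Of the 4 genes tested, 2 passed the threshold, 1 higher and 1 lower. Over all genes, each taken at its brightest kept probe, the limma test called 7.61% of 11133, 3.47% higher and 4.14% lower. By probe it called 6.46% of 18732, 3.04% higher and 3.42% lower. Nothing is read from the count of 2, since both differences were known when the list was drawn up. In log2 values, mimic and control arrays were fully separated for all 4 genes, and for 34.2% of all genes and 31.3% of all probes tested. Nothing is read from this either, since BNC2 and MECOM were listed with their differences known. WT1 was kept with detection on all 3 control arrays but only 1 mimic array. The raw intensities of WT1 and ARID1A overlapped between groups.

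**Figure D3:**
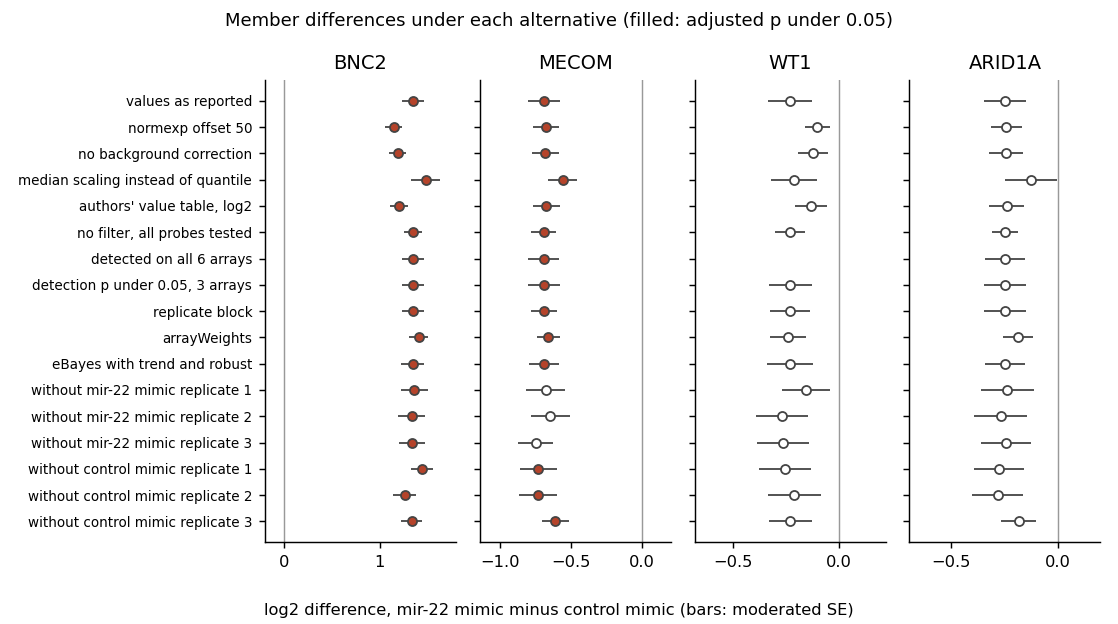
Log2 difference, mir-22 mimic minus control mimic, of the 4 tested genes under the reported processing and each alternative, with the moderated SE as bars and filled points for an adjusted p under 0.05. BNC2 stayed between 1.14 and 1.48 and was called throughout; MECOM stayed between -0.75 and -0.56 and was not called without any 1 mimic array; WT1 and ARID1A were called in none of those shown.

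BNC2 ran from 1.14 (offset 50) to 1.48 (median scaling) on the log2 scale and passed in all 17 alternatives. MECOM ran from -0.75 to -0.56 and passed in 14 of 17. WT1 passed in none of the 16 that tested it, between -0.27 and -0.10, and ARID1A in none of 17, between -0.28 and -0.12. These counts include the mean over kept probes, which had to repeat the reported value because each gene kept 1 probe. In the authors' deposited value table BNC2 read 193.2, 156.2 and 170.9 on the controls and 387.4, 402.2 and 401.5 on the mimic arrays, a log2 difference of 1.20. MECOM read 2015.9, 2056.0 and 2379.7 on the controls and 1318.5, 1277.4 and 1449.1 on the mimic arrays there, a log2 difference of -0.67.

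The genes nearest to BNC2 and MECOM over the 6 arrays were sought by the root mean square distance between log2 values, each centred on the gene's own mean. BNC2 lay nearest to the histone gene H4C2 (distance 0.08), the small nucleolar RNA gene SNORD16 (0.12) and the cell cycle kinase gene CDK6 (0.12). These had log2 differences of 1.25, 1.17 and 1.39 between mimic and control. MECOM lay nearest to NECAP2, of clathrin-mediated traffic (0.02), ACLY, the citrate lyase gene (0.03), and PSMB8, an immunoproteasome subunit gene (0.03), with log2 differences of -0.71, -0.71 and -0.72. MECOM and its 3 neighbours were all highest on control mimic replicate 3, whereas BNC2 was not. The neighbours were picked by these same values on the 6 arrays. Their like differences and shared highest array therefore follow from the choice and are no separate result.

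**Figure D4:**
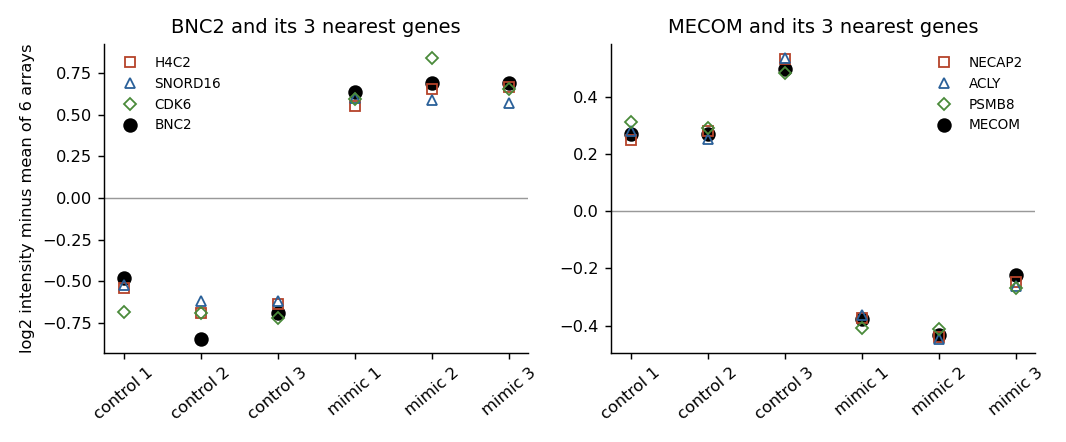
Log2 intensity minus the gene's mean over 6 arrays for BNC2 (left) and MECOM (right), each as black points, with the 3 nearest genes as open symbols. BNC2 ran from -0.84 to 0.69, with control mimic replicate 2 lowest, and MECOM from -0.43 to 0.49, with control mimic replicate 3 highest.

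Other regulators of Müllerian and gonadal development were mostly not detected. Of 32 listed, 23 had a probe named here and 8 were kept. MEIS2, a homeobox partner of HOX proteins, fell by 0.49 on the log2 scale (SE 0.112, adjusted p = 0.0410 in limma), from 8.90, 8.81 and 8.99 in controls to 8.46, 8.24 and 8.52 with the mimic. Only 1 of the 4 MEIS2 probes was kept, so the fall refers to that probe. None of the 8 was called higher, and the median log2 difference was 0.01, against -0.02 over all genes tested. AMH, the hormone that makes Müllerian ducts regress, was detected on all 6 arrays with a difference of 0.03, and its receptor gene AMHR2 on none. SOX9 (0.22), MSX1 (0.12) and NR2F1 (-0.35) did not pass. FOXL2, NR5A1 and GATA4 were detected on no array. The MEIS2 call was lost in 7 of 16 alternatives, among them leaving out any mimic array or control mimic replicate 1 or 2.

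Close relatives of the 9 regulators were also sought. Of 18 with a probe here 6 were kept and none was called, with a median of -0.14. BNC1, the relative of BNC2, was detected on all 6 arrays with a log2 difference of -0.21 ± 0.099 (moderated SE), and PRDM16, the relative of MECOM, on none. GATA2 (-0.32) was detected on all 6 arrays, and GATA1, GATA3 and GATA5 on none. SOX7 (0.10) was detected on 4, and ESR2, the other oestrogen receptor gene, on none.

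The partners of the regulators were compared as lists. Subunits of the BAF and PBAF complexes, in which ARID1A sits, had 23 kept genes and none called, with a median of 0.05 and a range from -0.28 to 0.44. The ATPase gene SMARCA4 was at 0.06 and the core subunit gene SMARCB1 at 0.18, while the ARID1A relative ARID1B was detected on 2 arrays. Proteins that bind MECOM had 3 of 13 kept genes called lower and none higher, with a median of -0.20. RUNX1, a blood cell transcription factor, fell by 0.67 (SE 0.101, adjusted p = 0.0108 in limma), HDAC1, a histone deacetylase, fell by 0.46 (SE 0.103) and CREBBP, a histone acetyltransferase, fell by 0.43 (SE 0.103). The other probes of RUNX1 were at 0.19 and -0.12 and that of CREBBP at -0.14, none of them called. The corepressor genes CTBP1 (0.16) and CTBP2 (-0.21) did not pass.

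RUNX1 lost its call without mimic replicate 1, 2 or 3, and HDAC1 and CREBBP lost theirs without any of those or without control mimic replicate 1 or 2. All 3 were also lost with median scaling. The share called, 3 of 13, stands beside 7.61% of all genes, on a list of few genes.

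Genes induced by oestrogen had 1 of 12 kept members called, XBP1, a transcription factor of the secretory pathway, which rose by a log2 of 0.46 (SE 0.092, adjusted p = 0.0262 in limma). Its other probe, at 0.49, did not pass. PGR, the progesterone receptor gene, was detected on 2 arrays, GREB1 on 3 and TFF1 on none, and CCND1 (-0.01) and MYC (-0.06) did not pass. RARA, a retinoic acid receptor gene, had a larger difference than XBP1, -0.58 (SE 0.143), just short of the threshold (adjusted p = 0.0511 in limma). It passed with the replicate number as a block (adjusted p = 0.0224 in limma). Both RARA results are from the brightest kept of its 3 probes, and the others are not given here. Coregulators of the oestrogen receptor had 2 of 10 called lower, the coactivator NCOA1 at -0.77 (SE 0.169) and CREBBP. Only 1 of the 3 NCOA1 probes was kept. Genes reported as WT1 targets had 1 of 10 called, SPRY1, an inhibitor of receptor kinase signalling, which rose by 0.75 (SE 0.097, adjusted p = 0.00665 in limma), with its other probe called too at 0.60. CDKN1A, an inhibitor of cell cycle kinases in the same list, was at -0.57 (SE 0.142, adjusted p = 0.0518 in limma). It passed with the block (adjusted p = 0.0456 in limma). Both CDKN1A results are from the brightest kept of its 2 probes, and the other is not given here. GATA cofactors had none of 3 called. Across all lists, 7 of 80 kept genes were called, 8.75%, close to the 7.61% of all genes tested, and 9 with the block.

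The calls of XBP1 and NCOA1 were lost without any 1 mimic array, that of XBP1 also without control mimic replicate 1 or 2 and that of NCOA1 without control mimic replicate 2, with median scaling and with no detection filter. NCOA1 was highest on control mimic replicate 3 at a log2 of 7.80, against 7.18 and 7.19 on the other controls, and its difference was -0.56 without that array. SPRY1 lost its call without mimic replicate 1 only, at 0.76 (adjusted p = 0.0527 in limma, over a range of 9.38e-05 to 0.0527 in 16 alternatives).

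**Figure D5:**
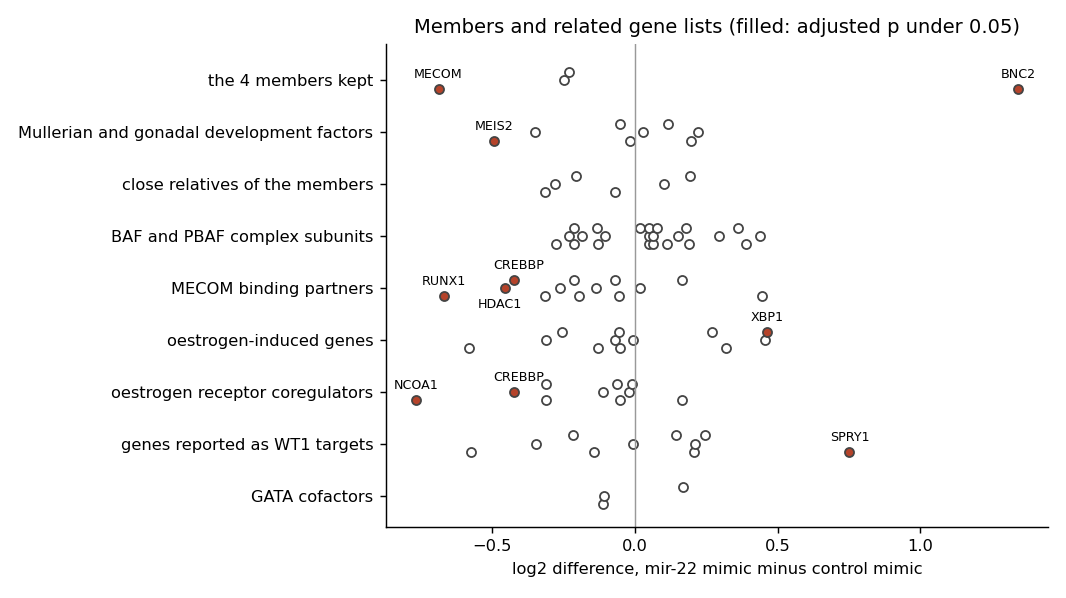
Log2 difference, mir-22 mimic minus control mimic, of each kept gene (1 point each, at its brightest kept probe) in the 4 tested regulators and in 8 lists of related genes, filled and named where the adjusted p was under 0.05. BNC2 at 1.34, which was listed with this difference known, lies beyond every list gene, and the list genes run from -0.77 to 0.75.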

How the data were processed

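Per the file headers, each deposited array file holds for every probe the mean bead intensity, its error over beads, a bead count and a detection score, a fraction from 0 to 1, which the authors made with BeadStudio, per the submitters' processing notes (no version stated). These intensity values carry no background subtraction or normalisation. The authors' deposited value table holds normalised intensity values on a linear scale, by a method that the sources used here do not state. The 48803 rows were joined by value rank over the arrays, 1 to 1. Symbols came from the platform annotation, and of the probes 28098 had 1 symbol, 13 several and 20692 none here.

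The score was subtracted from 1 to give a detection p. Intensities went through neqc in limma 3.58.1 (R 4.3.3), which fits the background, adds an offset of 16, normalises quantiles and takes log2. Probes with a detection p under 0.01 on at least 3 of 6 arrays, whichever these were, were tested with limma's moderated test (two-sided, Benjamini-Hochberg, threshold 0.05), which was tried on simulated data. Members and lists were chosen with earlier results of these data known. Named were all members, up to 4 called genes per list by adjusted p, markers, and the 3 nearest genes of each called member; list genes named beside them that did not pass were chosen after their values were seen. Alternatives changed the background correction, normalisation, filter, variance model and arrays. Same-numbered arrays deviated together from their group means (correlations of 0.33, 0.14 and 0.43). The reported values come from the fit without pairing, and the replicate number served as a block in an alternative. The pairing is uncertain, since the labels state none, and mimic replicate 1 with control mimic replicate 2 (0.32) and mimic replicate 2 with control mimic replicate 1 (0.18) deviated together too. Among the 4 tested members and the 80 kept list genes, the replicate block changed the calls of RARA and CDKN1A only.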

Additional observations from a re-analysis of the deposited data

How the results depend on the processing

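All sign directions of the 4 tested regulators and the 7 called list genes held in every alternative. Alternatives for the list genes were added after seeing the data. The number of probes called, 1210, was 628 with median scaling and 4405 with array weights, and the causes were not tested. Leaving out mir-22 mimic replicate 1, 2 or 3 gave 134, 133 or 209, and leaving out control mimic replicate 1, 2 or 3 gave 599, 421 or 2639. The number of regulators called was 2, and 1 without any 1 mimic array, where MECOM was lost; its log2 difference ran from -0.747 to -0.61 over the arrays left out. Of the list genes 7 were called, 2 with median scaling, 21 with array weights and 0 to 12 with 1 array left out (0, 1 or 1 when it was mimic replicate 1, 2 or 3, and 4, 2 or 12 when it was control mimic replicate 1, 2 or 3). With the replicate number as a block, 1577 probes were called and BNC2 and MECOM, at 1.34 and -0.69, still passed. Of the list genes 9 passed with the block, the 7 called without it together with RARA and CDKN1A. With no detection filter the 11 other probes of the 9 genes were tested and none passed, and a detection p under 0.05 added GATA6, which did not pass. WT1 was not tested where detection on all 6 arrays was required. Only 1 probe per regulator was kept, so the mean over probes equals the value reported. Signal over background limits WT1 and GATA6, and for PAX8, EMX2, SOX17 and ESR1 it leaves only a bound.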

Other observations

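Some markers of other cell types were detected in this cancer line. The endothelial cadherin gene CDH5 was detected on all 6 arrays, with a mean log2 level of 9.76 in controls and 9.39 with the mir-22 mimic, and so was the adhesion gene PECAM1 at 5.35 and 5.46, whereas VWF and KDR were detected on none. CD14, a receptor known from monocytes, was detected on all 6 arrays at 5.24 and 5.12, and the leukocyte gene PTPRC on none. None of the 3 passed the threshold between groups, with log2 differences of -0.38 ± 0.116 (moderated SE) for CDH5, 0.11 ± 0.113 for PECAM1 and -0.12 ± 0.096 for CD14 (adjusted p = 0.0965, 0.606 and 0.491 in limma).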
